A study of Mus musculus with 18 samples.

Results

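A group of 7 genes of the hedgehog pathway was examined in mouse 4T1 cells in which the translation factor DAP5 was targeted by a hairpin: Hhip, Ptch1, Smo, Gli1, Gli2, Gli3 and Sufu. They are 7 of the 35976 gene symbols counted per library, and 6 of them are among the 15072 genes with enough counts to be tested; Gli2 was not tested. Hhip was chosen by its level in unfractionated RNA, where its mRNA was several-fold lower in cells with the hairpin, and the others are the receptors and the transcription factors of the same pathway with Sufu. Levels in unfractionated RNA are therefore given as a description, and tests of the members rest on the polysome fractions. Polysomes hold part of a cell's mRNA, so the polysome tests of Hhip are not independent of its choice by unfractionated RNA.

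Hedgehog ligands bind the receptor Ptch1, which otherwise holds the membrane protein Smo inactive; once released, Smo acts through the primary cilium so that the Gli transcription factors are freed from the inhibitor Sufu. Hhip is a membrane-anchored and secreted protein that binds the ligands and keeps them from the receptor. Ptch1, Hhip and Gli1 are themselves transcribed in response to the pathway in many tissues, and in the mammary gland hedgehog signalling is best known from development and from exchange between tumour epithelium and stroma.

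The samples were 4T1 cells, a mammary carcinoma line of BALB/c origin that serves as a mouse counterpart of triple-negative tumours. In 1 arm, shDap5, the cells carried a hairpin against Dap5, and in the other, NSi, a non-silencing hairpin; both arms received doxycycline at 2 µg/ml for 6 days to induce it. Polyadenylated RNA was sequenced from whole lysate (input), light polysomes and heavy polysomes of a sucrose gradient, with 3 libraries for each arm and fraction and 18 in all. Each arm carries 1 named hairpin and no uninduced cells were sampled, so a difference that the 2 lines had before induction and an effect of the hairpin cannot be told apart. The labels do not say that the 3 libraries of a group are separate cultures, so the p-values reflect library-to-library spread only, and that spread may be technical. In bulk RNA, fewer cells with a transcript and less of it per cell cannot be told apart.

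Eif4g2, the gene for DAP5, was lower in shDap5 than in NSi on both polysome fractions. It stood at 338 ± 80.6 CPM in shDap5 and 1022 ± 275 CPM in NSi on light polysomes (SD, n = 3 each; log2 change -1.60, SE 0.26, edgeR adjusted p = 0.00204), and at 286 ± 68.5 CPM in shDap5 and 782 ± 108 CPM in NSi on heavy polysomes (log2 change -1.45, SE 0.26, edgeR adjusted p = 0.00349). CPM is the count scaled to a common library size. In input Eif4g2 stood at 534 ± 173 CPM in shDap5 and 803 ± 46.3 CPM in NSi. That difference did not pass the test (log2 change -0.59, SE 0.26, edgeR adjusted p = 0.202). It passed when libraries of the same number were paired within a fraction (log2 change -0.64, edgeR adjusted p = 0.00454). Without pairing, the 6 fits that each left out 1 input library gave log2 changes between -0.78 and -0.35, and 0 passed. The smallest fall was without shDap5 2, so the size of the input difference depends on that library. Total counts ran from 30385863 to 71331978 per library, and the limit that a count of 0 allows, 3 counts, was 0.0394 to 0.110 CPM. The 8 markers of mammary epithelium summed to between 3696 and 4359 CPM in shDap5 inputs and between 2542 and 2852 CPM in NSi inputs, with Krt5 at 0 in the inputs of both arms. All 6 lymphocyte markers averaged under 1 CPM in the inputs of both arms.

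Promoter stretches of 3 genes are shown for reference, and a relation of expression to their sequence was not tested. Hhip and Ptch1 both encode ligand-binding proteins made in response to the pathway and stood on opposite sides of the control. Evc was the one gene of the pathway lists outside the members that edgeR called higher in shDap5 without pairing libraries. The stretches are RefSeq sequence of build GRCm38.p6, on the minus strand, read 5′ to 3′. The Hhip stretch (chr8:80058061-80058258, 198 bases) is the piece of the promoter window that lies upstream of the gene as annotated. The Ptch1 stretch (chr13:63565736-63565985, 250 bases) precedes a start site that lies within the gene body of a longer isoform, and the Evc stretch (chr5:37336882-37337131, 250 bases) precedes the start of Evc. Capitals mark TGACGTCA, the cyclic AMP response element, a motif that was looked for after the Hhip sequence had been read.
Hhip: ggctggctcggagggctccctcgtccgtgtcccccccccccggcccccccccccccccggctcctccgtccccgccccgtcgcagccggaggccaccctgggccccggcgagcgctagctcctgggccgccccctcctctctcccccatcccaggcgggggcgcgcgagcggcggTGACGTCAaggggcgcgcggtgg
Ptch1: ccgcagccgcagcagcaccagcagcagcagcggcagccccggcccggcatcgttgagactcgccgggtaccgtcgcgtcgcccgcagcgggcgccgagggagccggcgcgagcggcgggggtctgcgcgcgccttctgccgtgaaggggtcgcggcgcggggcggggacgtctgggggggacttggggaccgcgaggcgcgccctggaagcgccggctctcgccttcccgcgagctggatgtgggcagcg
Evc: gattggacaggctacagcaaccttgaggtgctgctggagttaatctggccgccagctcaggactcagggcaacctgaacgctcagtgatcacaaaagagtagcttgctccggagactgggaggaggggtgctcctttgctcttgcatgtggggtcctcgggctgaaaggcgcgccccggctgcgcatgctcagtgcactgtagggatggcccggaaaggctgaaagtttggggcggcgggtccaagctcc

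The letters GACCACCCA, the consensus bound by Gli proteins, and their reverse complement TGGGTGGTC were searched in windows that run from 250 bases before to 50 bases after each RefSeq start. Of the 7 members, 6 had such a window, all but Gli1, and so did 52 of the members and other pathway genes together. None of their 69 windows held the consensus, against 83 of 32851 windows over all genes (0.253%), so a match was rare everywhere. No match says only that these letters are not in this window. TGACGTCA, which is its own reverse complement, was in the Hhip window with its first base 75 bases before the window's start site. That site lies inside the gene as annotated, so the motif is nearer to the annotated gene than 75 bases. The motif was in 588 of all 32851 windows (1.79%). Among the 69 windows of members and pathway genes it was in 3, the other 2 being windows of Prkar1a. The Hhip window was 73.7% GC and the Ptch1 window 76.3%, against a median of 52.7% over all windows.

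Hhip had its lower level in shDap5 in all 3 fractions. In input, the values that chose it were 13.3, 12.4 and 12.2 CPM in shDap5 (1013, 759 and 633 counts) and 65.2, 42.6 and 71.7 CPM in NSi (4178, 2648 and 4604 counts). The shDap5 libraries lay close together and far below all 3 NSi libraries, which spread more. The means were 12.6 ± 0.602 CPM in shDap5 and 59.8 ± 15.3 CPM in NSi, so that shDap5 input held 21.1% of the NSi level (log2 change -2.24, SE 0.23, given without a test).

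On light polysomes Hhip stood at 5.47, 6.47 and 6.62 CPM in shDap5 and at 15.4, 17.0 and 28.4 CPM in NSi. Every shDap5 library was below every NSi library, and NSi 3 was the highest by a wide margin. Hhip averaged 6.19 ± 0.627 CPM in shDap5 and 20.3 ± 7.07 CPM in NSi, 30.5% of NSi, and fell (log2 change -1.71, SE 0.23, edgeR adjusted p = 0.000447). Over the 6 fits that each left out 1 light library the log2 change was between -1.87 and -1.39, with an adjusted p of at most 0.00403.

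On heavy polysomes Hhip stood at 9.35, 13.4 and 12.8 CPM in shDap5 and at 41.3, 42.7 and 43.4 CPM in NSi. The groups did not overlap, and here the NSi libraries were nearly equal. Hhip averaged 11.9 ± 2.21 CPM in shDap5 and 42.5 ± 1.09 CPM in NSi, 28.0% of NSi, and fell (log2 change -1.84, SE 0.23, edgeR adjusted p = 0.000169). Without each heavy library in turn the log2 change was between -1.93 and -1.69, with an adjusted p of at most 0.00185. Set against the NSi library of the same number and polysome fraction, shDap5 had less Hhip in 6 of 6 pairs, at 0.226 to 0.380 of the NSi level.

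**Figure D1:**
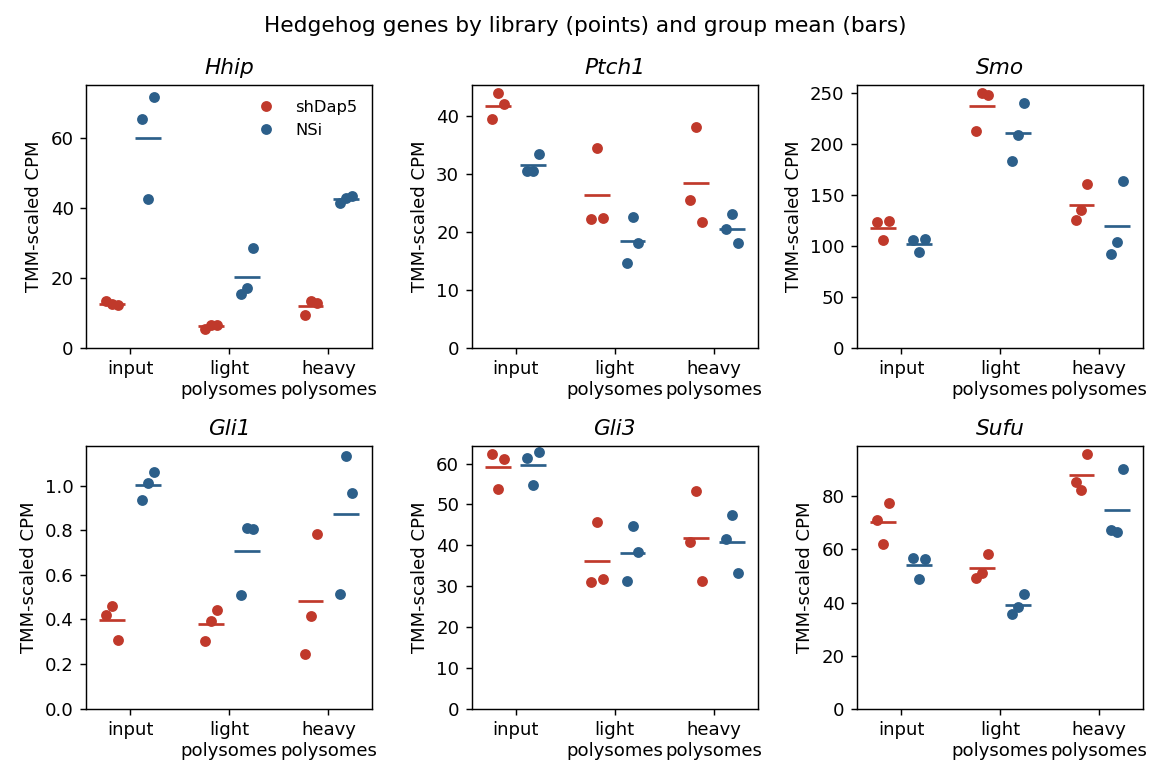
TMM-scaled CPM (vertical axes, from 0) of 6 members (Gli2 is left out) in each of the 18 libraries, with shDap5 left of NSi within input, light and heavy polysomes; points are libraries and bars are means. Hhip in shDap5 stayed at or below 13.4 CPM, while all NSi libraries stood at 15.4 CPM or more.

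Markers of other cell types were set beside Hhip. The 8 fibroblast markers summed to 23.6 to 30.9 CPM in shDap5 inputs and 31.2 to 40.8 CPM in NSi inputs. Nearly all of that was Pdgfra, at 25.3 ± 3.70 CPM in shDap5 and 35.0 ± 5.17 CPM in NSi; 7 of the 8 averaged under 1 CPM in both arms, and Lum was at 0 in every input library. On light polysomes the fibroblast sums overlapped (13.5 to 14.8 CPM in shDap5, 12.4 to 18.03 CPM in NSi), as they did on heavy polysomes (14.0 to 24.9 CPM in shDap5, 16.8 to 24.0 CPM in NSi). The 7 endothelial markers summed to 0.900 to 1.62 CPM in shDap5 inputs and 2.60 to 3.44 CPM in NSi inputs. The 6 macrophage markers summed to 20.9 to 61.2 CPM in shDap5 inputs and 44.1 to 49.6 CPM in NSi inputs. The macrophage sums overlapped on both polysome fractions too. Most of each input sum was Cd68, and single markers ran opposite ways. Csf1r averaged 10.5 CPM in shDap5 and 2.26 CPM in NSi in input and was higher in shDap5 in 9 of 9 same-numbered pairs. Lyz2 and Mrc1 were lower in 9 of 9. On light polysomes the endothelial sums were 1.61 to 3.92 CPM in shDap5 and 3.81 to 6.78 CPM in NSi, and on heavy polysomes 1.04 to 1.66 CPM in shDap5 and 1.76 to 2.18 CPM in NSi. The 5 adipocyte markers summed to 0.404 to 0.818 CPM in shDap5 and 2.43 to 2.93 CPM in NSi in input, to 1.55 to 1.88 CPM in shDap5 and 4.16 to 5.88 CPM in NSi on light polysomes, and to 1.46 to 2.78 CPM in shDap5 and 3.26 to 6.28 CPM in NSi on heavy polysomes. That sum is mostly Fabp4, the only one of the 5 tested, which fell in input (log2 change -2.44, SE 0.35, edgeR adjusted p = 0.000335) and on light polysomes (-1.44, SE 0.33, edgeR adjusted p = 0.0214); Adipoq, Plin1, Cidec and Lep averaged under 1 CPM in every group. The sums of smooth muscle and pericyte markers overlapped between the arms in all 3 fractions. The adipocyte sums in all fractions, the endothelial sums in input and on heavy polysomes, and the fibroblast sums in input moved the same way as Hhip without overlap; their part in the result was not tested.

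Ptch1, the receptor that binds hedgehog ligands and restrains Smo, was higher in the shDap5 library of every same-numbered pair, and on polysomes the difference passed the test only with libraries paired within the fraction. In input it stood at 39.5, 43.9 and 42.0 CPM in shDap5 and at 30.5, 30.6 and 33.5 CPM in NSi. These groups did not overlap, and the means were 41.8 ± 2.22 CPM in shDap5 and 31.5 ± 1.68 CPM in NSi (log2 difference 0.41, SE 0.21, given without a test).

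On light polysomes Ptch1 stood at 22.1, 34.4 and 22.4 CPM in shDap5 and at 14.7, 22.5 and 18.03 CPM in NSi. Library 2 was the highest of its arm in both, and the arms overlapped because NSi 2 was just above shDap5 1 and 3. The log2 difference was 0.52 (SE 0.21, edgeR adjusted p = 0.224), and with libraries of the same number paired within the fraction it was 0.51 (SE 0.12, edgeR adjusted p = 0.00826).

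On heavy polysomes Ptch1 stood at 25.5, 38.1 and 21.7 CPM in shDap5 and at 20.5, 23.1 and 18.01 CPM in NSi. Here again library 2 was the highest and library 3 the lowest of each arm. The log2 difference was 0.47 (SE 0.21, edgeR adjusted p = 0.266), and 0.44 with libraries paired within the fraction (SE 0.11, edgeR adjusted p = 0.0165). Over the 9 same-numbered pairs shDap5 had 1.20 to 1.65 times the Ptch1 of NSi.

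Smo, the transducer that Ptch1 restrains, passed the test on neither polysome fraction. In input it stood at 123, 106 and 124 CPM in shDap5 and at 105, 93.7 and 107 CPM in NSi (log2 difference 0.20, SE 0.18). On light polysomes it stood at 213, 250 and 248 CPM in shDap5 and at 184, 208 and 240 CPM in NSi (log2 difference 0.17, SE 0.19, edgeR adjusted p = 0.731). On heavy polysomes it stood at 125, 135 and 160 CPM in shDap5 and at 92.3, 103 and 163 CPM in NSi (log2 difference 0.23, SE 0.19, edgeR adjusted p = 0.576). The arms overlapped in all 3 fractions, with the shDap5 library higher in 8 of 9 same-numbered pairs.

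Sufu, which binds Gli proteins and holds them in the cytoplasm, had the higher level in the shDap5 library of every same-numbered pair. In input it stood at 70.96, 62.0 and 77.6 CPM in shDap5 and at 56.9, 49.0 and 56.6 CPM in NSi, without overlap (log2 difference 0.37, SE 0.15, given without a test). On light polysomes it stood at 49.1, 51.2 and 58.2 CPM in shDap5 and at 35.6, 38.3 and 43.1 CPM in NSi. All 3 shDap5 libraries were above all NSi libraries there. That difference of 0.44 on the log2 scale (SE 0.15) missed the threshold in edgeR (adjusted p = 0.129) and passed it with libraries paired within the fraction (0.44, SE 0.09, adjusted p = 0.00523) and in DESeq2 (0.45, SE 0.15, adjusted p = 0.0466). On heavy polysomes Sufu stood at 85.4, 82.4 and 96.1 CPM in shDap5 and at 67.4, 66.6 and 90.5 CPM in NSi, with overlap (log2 difference 0.23, SE 0.15, edgeR adjusted p = 0.469). The same-numbered pairs gave 1.06 to 1.38 times the NSi level, above it in 9 of 9.

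Gli1, the activating Gli protein that the pathway itself induces, was close to the detection limit, with 8 to 68 counts per library. In input it stood at 0.420, 0.458 and 0.307 CPM in shDap5 (32, 28 and 16 counts) and at 0.936, 1.01 and 1.06 CPM in NSi (60, 63 and 68 counts). The arms did not overlap, and the log2 difference was -1.33 (SE 0.39, given without a test). On light polysomes it stood at 0.304, 0.395 and 0.444 CPM in shDap5 and at 0.507, 0.810 and 0.805 CPM in NSi (log2 difference -0.89, SE 0.42, edgeR adjusted p = 0.307). All shDap5 light libraries were again the lower ones. On heavy polysomes it stood at 0.245, 0.416 and 0.784 CPM in shDap5 and at 0.513, 1.13 and 0.968 CPM in NSi (log2 difference -0.80, SE 0.40, edgeR adjusted p = 0.322), where shDap5 3 lay inside the NSi range. Gli1 was lower in the shDap5 library of 9 of 9 same-numbered pairs, at 0.290 to 0.810 of NSi, and neither polysome difference passed the test with paired libraries (adjusted p = 0.105 on light and 0.0890 on heavy polysomes).

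Gli3, which in the absence of signal is processed into the main repressor of the pathway, was nearly equal in both arms. It stood at 62.3, 53.7 and 61.2 CPM in shDap5 inputs and at 61.3, 54.8 and 62.8 CPM in NSi inputs (log2 difference -0.01, SE 0.20). On light polysomes it stood at 31.0, 45.6 and 31.8 CPM in shDap5 and at 31.1, 44.7 and 38.2 CPM in NSi (log2 difference -0.07, SE 0.20, edgeR adjusted p = 0.917). On heavy polysomes it stood at 40.7, 53.3 and 31.3 CPM in shDap5 and at 41.6, 47.4 and 33.2 CPM in NSi (log2 difference 0.04, SE 0.20, edgeR adjusted p = 0.956). Library 2 was the highest of its arm on both polysome fractions in both arms, and the arms overlapped throughout. Gli2, the main activator downstream of Smo in many tissues, was almost not detected, with 2 counts over the 9 shDap5 libraries (all in 1 library) and 15 counts over the 9 NSi libraries (in 5 libraries).

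Counted over the 6 members tested, 2 passed the edgeR threshold in input (Hhip and Gli1, both lower), 1 on light and 1 on heavy polysomes (Hhip in each), against 6.95%, 3.47% and 3.95% of all genes tested in the same fractions. The input count belongs to the comparison that chose Hhip, and its Gli1 call was kept in 1 of 6 fits with 1 input library left out (adjusted p up to 0.200) and lost with no filter on low counts (adjusted p = 0.0932). With libraries paired within a fraction the counts were 4, 3 and 2, against 22.1%, 16.1% and 18.3% of all genes. The arms did not overlap for 4 members in input, 3 on light and 1 on heavy polysomes, against 37%, 19.9% and 15.7% of all genes. The median log2 difference of the 6 was 0.10 in input, 0.05 on light and 0.13 on heavy polysomes. That of all genes was 0.05, -0.01 and 0.01 in the same order. Hhip and Gli1 lay below 0 in every fraction, Gli3 near 0, and Ptch1, Smo and Sufu above 0. Hhip was chosen for its lower level in input, so its place below 0 there was fixed in advance. Its polysome calls, the only member calls there without pairing, are not independent of that choice.

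**Figure D2:**
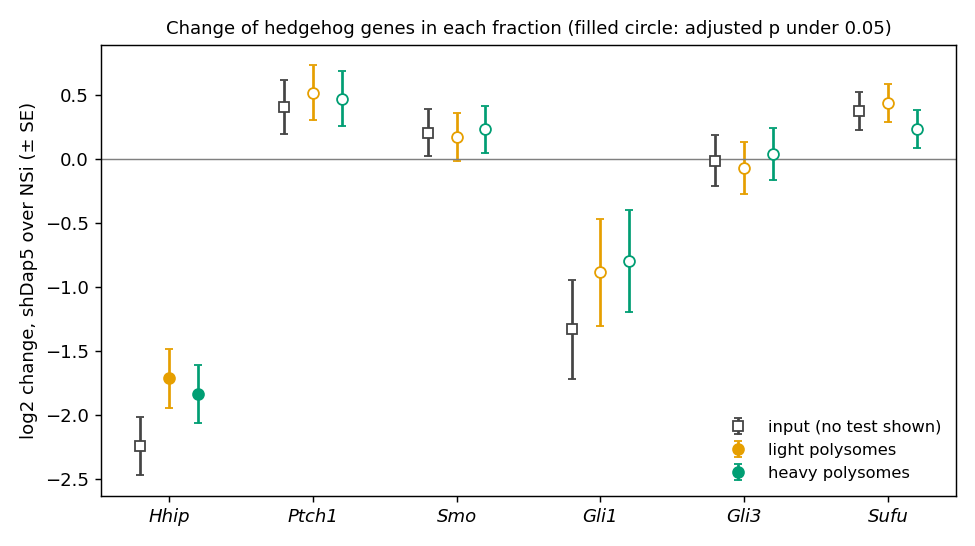
Log2 change of 6 members, shDap5 over NSi (vertical axis), with the standard error as bars, in input (squares, given without a test), light and heavy polysomes (circles, filled where the edgeR adjusted p was under 0.05). Hhip lay at -2.24, -1.71 and -1.84, while Ptch1 and Sufu lay above 0 in every fraction.

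**Figure D3:**
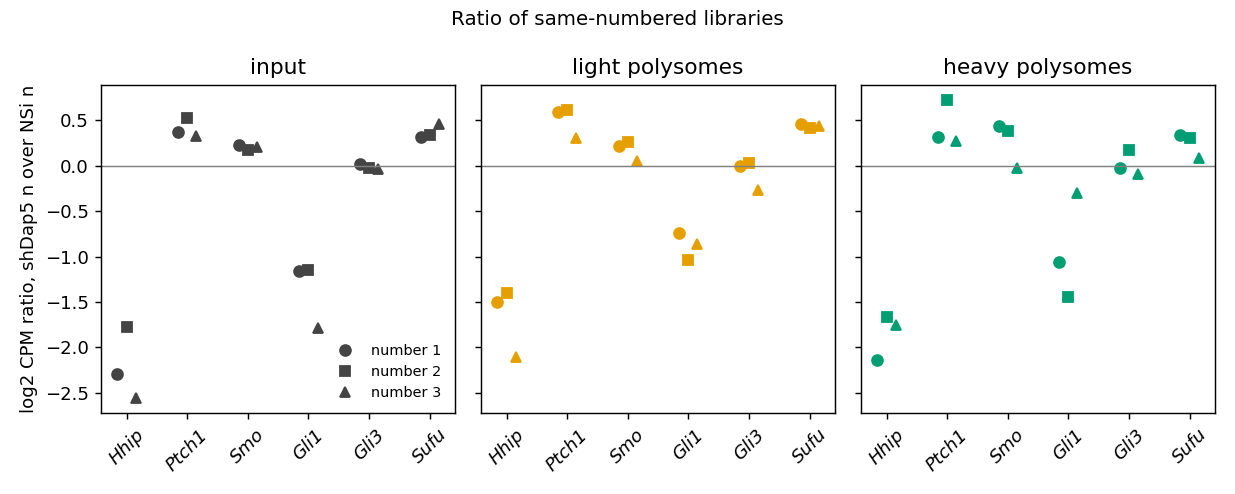
Log2 ratio of each shDap5 library to the NSi library of the same number (points) for 6 members, in 1 panel per fraction. On polysomes all 6 Hhip and all 6 Gli1 ratios were below 0 and all 6 Ptch1 and all 6 Sufu ratios above it; the input panel holds the comparison that chose Hhip.

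Levels of different genes were compared per kilobase of exon, with exon lengths of GENCODE vM21 on GRCm38, which is not the annotation behind the counts. In NSi input Smo led with 18.2 ± 1.30 CPM per kilobase, ahead of Sufu at 7.04 ± 0.579, Hhip at 6.59 ± 1.69, Gli3 at 6.22 ± 0.441, Ptch1 at 2.22 ± 0.119 and Gli1 at 0.201 ± 0.0124 (SD, n = 3). The means of Sufu, Hhip and Gli3 lay close together there against their spread between libraries. Differences between these genes within a library were not tested. In shDap5 input Smo stood at 20.9 ± 1.83 CPM per kilobase, Sufu at 9.13 ± 1.02, Gli3 at 6.16 ± 0.490, Ptch1 at 2.94 ± 0.156, Hhip at 1.39 ± 0.0663 and Gli1 at 0.0791 ± 0.0157. Thus Hhip, which matched Gli3 in NSi input, lay below Ptch1 in shDap5 input. On polysomes the order of the others was the same as in input in both arms. Hhip stood at 0.682 ± 0.0691 CPM per kilobase in shDap5 and 2.24 ± 0.780 in NSi on light polysomes, and at 1.31 ± 0.243 in shDap5 and 4.68 ± 0.120 in NSi on heavy polysomes. Ptch1 stood at 1.86 ± 0.496 in shDap5 and 1.30 ± 0.278 in NSi on light polysomes, and at 2.01 ± 0.606 in shDap5 and 1.45 ± 0.178 in NSi on heavy polysomes.

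Whether the hairpin changed a member on polysomes beyond its change in input was asked with the difference between the log2 changes. For Hhip, whose input change is part of this measure, it was 0.41 (SE 0.31) on heavy and 0.53 (SE 0.31) on light polysomes relative to input, given without a test; between heavy and light polysomes it was -0.12 (SE 0.32, edgeR adjusted p = 1.0). The other 5 members lay between -0.14 and 0.53 on heavy relative to input, between -0.06 and 0.44 on light relative to input, and between -0.20 and 0.11 on heavy relative to light polysomes. The highest value of both comparisons with input was that of Gli1, with SE 0.55 and 0.57. edgeR called 0 of all 15072 genes in each of the 3 comparisons (0%), as did DESeq2. At an unadjusted p under 0.05 edgeR had 295, 320 and 181 genes (1.96%, 2.12% and 1.2%), and 0 of the 6 members. Such shares are under those expected with no change in any gene. The 0 calls therefore cannot show that a change beyond input was absent.

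Hhip, Smo and Sufu were distributed unequally between heavy and light polysomes, in the same way in both arms. Hhip was 1.92 times as high on heavy as on light polysomes in shDap5 (log2 difference 0.94, SE 0.23, edgeR adjusted p = 0.00297) and 2.09 times in NSi (log2 difference 1.07, SE 0.22, edgeR adjusted p = 0.000664). Sufu was 1.67 times as high on heavy polysomes in shDap5 (0.74, SE 0.15, edgeR adjusted p = 0.000837) and 1.92 times in NSi (0.94, SE 0.15, edgeR adjusted p = 6.37e-05). Smo ran the other way, with 0.592 times its light level on heavy polysomes in shDap5 (log2 difference -0.76, SE 0.19, edgeR adjusted p = 0.00339) and 0.568 times in NSi (-0.82, SE 0.18, edgeR adjusted p = 0.00141).

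The light fraction held 2.01 times the input level of Smo in shDap5 and 2.06 times in NSi, on a scale that is relative to all RNA of a fraction. Ptch1 and Gli1 did not pass the test between heavy and light polysomes in either arm (log2 difference 0.11 in shDap5 and 0.16 in NSi for Ptch1, 0.39 in shDap5 and 0.30 in NSi for Gli1). Gli3 lay at 0.21 in shDap5 and 0.10 in NSi and did not pass the test in either arm. The fit with libraries paired within a fraction takes library 1 of each fraction as its reference. It therefore gives no paired test of heavy against light polysomes. In each arm 3 of 6 members were called, 2 higher and 1 lower on heavy polysomes. Of all genes 44.5% were called in shDap5 (24.3% higher and 20.2% lower) and 52.6% in NSi (27% higher and 25.6% lower), so the share of members called is near the background.

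**Figure D4:**
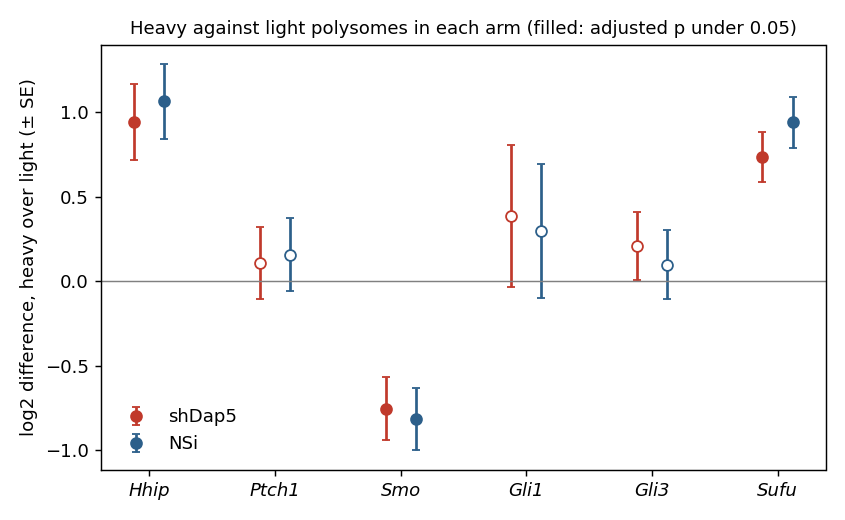
Log2 difference between heavy and light polysomes (vertical axis, heavy over light) of 6 members in shDap5 and NSi, with the standard error as bars; filled points had an edgeR adjusted p under 0.05. Hhip and Sufu lay above 0 and Smo below it in both arms.

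The rest of the pathway was described with 63 further genes sorted by role, of which 53 were tested. In input 1 rose and 6 fell, on light polysomes 1 rose and 2 fell, and on heavy polysomes 0 rose and 2 fell, against 3.01% higher and 3.94% lower, 1.83% and 1.64%, and 2.03% and 1.92% of all genes in the same fractions. On heavy polysomes 4 were higher and 7 lower at an unadjusted p under 0.05, against 9.23% and 7.92% of all genes, and DESeq2 called 1 higher and 4 lower, against 3.36% and 3.6% of all genes. Their median log2 change was -0.02 in input, 0.04 on light and -0.07 on heavy polysomes. With libraries paired within a fraction 5 rose and 12 fell in input, 7 rose and 7 fell on light, and 4 rose and 9 fell on heavy polysomes. In that fit 11.6% of all genes rose and 10.5% fell in input, 8.63% and 7.5% on light, and 10.3% and 8.01% on heavy polysomes.

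Of 8 genes for ligands and their release, 4 were tested. Shh was at 0 in every library. Scube3, a secreted protein of a family that in zebrafish and mouse helps to release the ligand, fell in input to 0.131, 0.703 and 0.173 CPM in shDap5, against 2.73, 2.77 and 2.17 CPM in NSi (log2 change -2.92, SE 0.59, edgeR adjusted p = 0.00476). Library 2 of shDap5 was the highest of its arm, and without it the log2 change was -4.06. On light polysomes Scube3 lay at -1.12 (SE 0.63, edgeR adjusted p = 0.410) and on heavy polysomes at -1.73 (SE 0.58, edgeR adjusted p = 0.114), where it passed with paired libraries (-1.90, adjusted p = 0.00555), in DESeq2 (-1.74, adjusted p = 0.0369) and without shDap5 heavy library 2 (-2.56, adjusted p = 0.0316).

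Dhh, the one ligand gene above trace level, and Disp1, a transporter that releases lipid-modified ligand, were chosen after their values were seen. Dhh stood at 6.83, 5.94 and 7.34 CPM in shDap5 inputs and at 11.8, 9.73 and 11.2 CPM in NSi inputs, without overlap (log2 difference -0.71, SE 0.28, edgeR adjusted p = 0.149). It was lower in shDap5 in 9 of 9 same-numbered pairs and passed with paired libraries in input (adjusted p = 0.00195), on light (0.0148) and on heavy polysomes (0.00503). Disp1 averaged 13.6 CPM in shDap5 and 19.1 CPM in NSi in input (log2 difference -0.49, SE 0.17, edgeR adjusted p = 0.0856), and it too was lower in 9 of 9 pairs. Hhat, the remaining gene of the 4 tested, went the other way. It stood at 8.80 to 9.30 CPM in shDap5 inputs and at 8.12 to 8.37 CPM in NSi inputs. It was higher in shDap5 in 7 of 9 same-numbered pairs and lower in 2. The median log2 difference of the 4 genes was -0.60 in input, -0.47 on light and -0.59 on heavy polysomes. None of the 4 was called by edgeR on either polysome fraction, where 1 on light and 3 on heavy had an unadjusted p under 0.05 (16.1% and 17.2% of all genes) and DESeq2 called 0 and 2 (6.6% and 6.97% of all genes).

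Of 6 genes listed for other ligand-binding membrane proteins, 3 were tested, and Boc fell in all 3 fractions. Boc is a membrane protein that binds ligand together with Ptch1. Its input levels were 2.19, 2.57 and 2.29 CPM in shDap5 and 5.38, 6.56 and 6.28 CPM in NSi (log2 change -1.37, SE 0.25, edgeR adjusted p = 0.00269). Light polysomes held 1.94, 2.50 and 1.47 CPM in shDap5 and 3.02, 5.49 and 5.58 CPM in NSi (-1.25, SE 0.26, edgeR adjusted p = 0.0124). On heavy polysomes it stood at 1.81, 2.55 and 2.19 CPM in shDap5 and at 4.25, 5.34 and 4.69 CPM in NSi (-1.12, SE 0.26, edgeR adjusted p = 0.0197). The arms overlapped in none of the fractions. The polysome calls were lost without light NSi 2, light NSi 3 or light shDap5 3 (adjusted p = 0.0718, 0.0560 and 0.0734) and without heavy NSi 2, heavy shDap5 1 or heavy shDap5 3 (adjusted p = 0.0869, 0.0801 and 0.0653), and when only the libraries compared were fitted (0.105 on light, 0.154 on heavy). Cdon, the close relative of Boc, chosen after its values were seen, lay at -0.74, -0.53 and -0.58 in the 3 fractions and passed with paired libraries (adjusted p = 0.0103, 0.0437 and 0.0268).

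Of 15 cilium and transduction genes, only Evc was called without pairing, and it rose in input and on light polysomes (3.01% and 1.83% of all genes rose there). With libraries paired within a fraction Evc2 also rose in input and on light polysomes. In that fit Inpp5e rose on both polysome fractions and Iqce on heavy polysomes, while Tulp3 fell in input. Of all genes 11.6%, 8.63% and 10.3% rose with pairing in input, light and heavy polysomes, and 10.5% fell in input. Evc is a transmembrane protein at the base of the cilium that works with Smo. Evc in input stood at 47.0, 46.9 and 55.9 CPM in shDap5 and at 23.9, 25.8 and 25.2 CPM in NSi, so that the lowest shDap5 library was far above the highest NSi library (log2 change 1.001, SE 0.17, edgeR adjusted p = 0.00163). Evc on light polysomes stood at 77.6, 111 and 77.9 CPM in shDap5 and at 44.7, 62.4 and 54.5 CPM in NSi (0.72, SE 0.17, edgeR adjusted p = 0.0279), a call lost without NSi 1, NSi 3 or shDap5 2 (adjusted p = 0.111, 0.0742 and 0.150) or with only the libraries compared (0.112). On heavy polysomes it stood at 82.8, 106 and 76.6 CPM in shDap5 and at 53.3, 65.0 and 61.7 CPM in NSi. The arms again did not overlap there, and the log2 difference of 0.56 (SE 0.17) missed the threshold in edgeR (adjusted p = 0.0834) but passed with paired libraries (0.55, adjusted p = 0.00292) and in DESeq2 (0.54, adjusted p = 0.0363). Evc was higher in 9 of 9 same-numbered pairs.

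None of the 19 kinases and degradation factors acting on Smo and the Gli proteins was called by edgeR without pairing in any fraction. With libraries paired within a fraction 3 rose in input, 4 on light and 1 on heavy polysomes, and 0 fell. In that fit 11.6%, 8.63% and 10.3% of all genes rose. At an unadjusted p under 0.05, 2 in input, 4 on light and 1 on heavy polysomes were higher and 0 lower. DESeq2 called 2, 1 and 0, all higher. Of all genes, 19.5%, 16.1% and 17.2% had an unadjusted p under 0.05 in these fractions, and DESeq2 called 10.3%, 6.6% and 6.97%. Counting only higher genes, these shares were 10.1%, 8.24% and 9.23%, and 4.85%, 3.67% and 3.36%. The kinases with the highest CPM averaged over all 18 libraries were Prkar1a, the regulatory subunit of protein kinase A, with log2 differences of 0.05, 0.07 and -0.20 in input, light and heavy polysomes, and Csnk1d, a casein kinase, with 0.07, 0.19 and -0.02.

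Of 16 genes reported as transcriptional targets of the pathway, 12 were tested. In input 4 fell and on each polysome fraction 1, against 3.94%, 1.64% and 1.92% of all genes in input, light and heavy polysomes. At an unadjusted p under 0.05, 5, 4 and 3 were lower in edgeR, against 9.45%, 7.87% and 7.92% of all genes. DESeq2 called 5, 1 and 1 lower, against 5.47%, 2.93% and 3.6%. The median log2 change of the 12 was -0.32, -0.36 and -0.41, and that of all genes 0.05, -0.01 and 0.01. Jag2, a ligand of Notch receptors, fell in all 3 fractions. In input it stood at 13.6, 15.8 and 14.8 CPM in shDap5 and at 30.8, 35.4 and 28.4 CPM in NSi (log2 change -1.10, SE 0.18, edgeR adjusted p = 0.000845). On light polysomes it stood at 7.23, 8.82 and 9.32 CPM in shDap5 and at 12.2, 19.4 and 17.2 CPM in NSi (-0.94, SE 0.18, edgeR adjusted p = 0.00659), and on heavy polysomes at 11.99, 14.7 and 14.8 CPM in shDap5 and at 27.4, 32.9 and 27.3 CPM in NSi (-1.08, SE 0.18, edgeR adjusted p = 0.00213). The arms overlapped in none of them, but both polysome calls were lost when only the 6 libraries compared were fitted (adjusted p = 0.0736 on light and 0.0724 on heavy polysomes).

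The other 3 fell in input. Ccnd2, the cell cycle regulator cyclin D2, stood at 81.3, 124 and 97.2 CPM in shDap5 and at 193, 194 and 216 CPM in NSi (log2 change -0.99, SE 0.24, edgeR adjusted p = 0.0154). Foxf1, a forkhead transcription factor of mesenchyme, stood at 2.19, 4.204 and 2.02 CPM in shDap5 and at 6.65, 6.93 and 6.87 CPM in NSi (-1.28, SE 0.33, edgeR adjusted p = 0.0226). Igfbp6, which binds insulin-like growth factors, stood at 0.105, 0.0818 and 0.0192 CPM in shDap5 (8, 5 and 1 counts) and at 0.453, 0.434 and 0.545 CPM in NSi (29, 27 and 35 counts), with a log2 change of -2.68 (SE 0.49) and an edgeR adjusted p of 0.00226. None of these 3 pairs of groups overlapped, as was true of 37% of all genes in input. The Ccnd2 call was lost without NSi 3, shDap5 1 or shDap5 3 (adjusted p = 0.0659, 0.103 and 0.0732), and the Foxf1 call without any input library other than shDap5 2 (adjusted p up to 0.132). On polysomes none of the 3 was called without pairing. Ccnd2 lay at -0.64 on light and -0.61 on heavy polysomes and passed with libraries paired within the fraction (-0.66, adjusted p = 0.00162 on light, and -0.63, adjusted p = 0.00180 on heavy). Foxf1 lay at -0.74 on light and -0.70 on heavy polysomes and passed with paired libraries on light polysomes (-0.71, adjusted p = 0.0424) but not on heavy ones (-0.64, adjusted p = 0.0617). Igfbp6 lay at -0.99 on light and -0.45 on heavy polysomes and did not pass with paired libraries (adjusted p = 0.0936 on light and 0.456 on heavy).

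**Figure D5:**
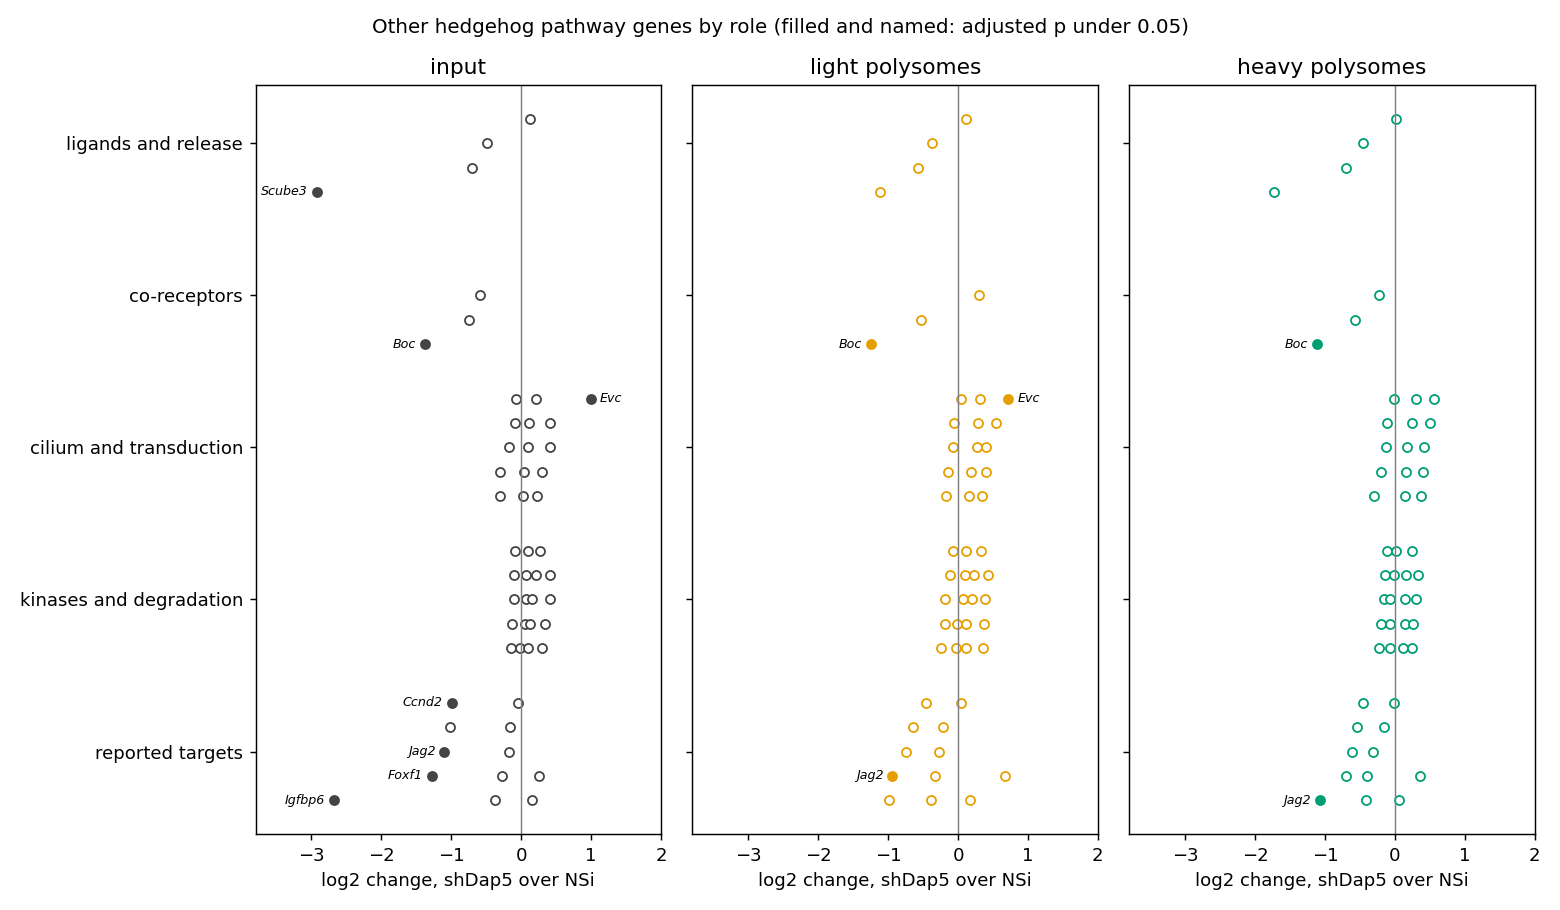
Log2 change, shDap5 over NSi (horizontal axis), of the other hedgehog pathway genes tested, in rows by role and 1 panel per fraction; filled and named points had an edgeR adjusted p under 0.05, and vertical spread within a role only separates points. The named points are Scube3, Boc, Ccnd2, Jag2, Foxf1 and Igfbp6 below 0 and Evc above it.

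The genes whose log2 CPM followed that of Hhip most closely over the 18 libraries were, among 10307 ranked, Cpq, a carboxypeptidase (Pearson r = 0.949), Jag2 (0.949), Antxr1, a membrane receptor also bound by anthrax toxin (0.946), Dab2, an endocytic adaptor (0.935), and Pear1, a platelet receptor (0.927). These r describe libraries that share arms, fractions and depth. Cpq averaged 3.74 CPM in shDap5 and 12.1 CPM in NSi in input, Antxr1 12.4 CPM in shDap5 and 34.2 CPM in NSi, Dab2 35.5 CPM in shDap5 and 90.1 CPM in NSi, and Pear1 16.7 CPM in shDap5 and 44.0 CPM in NSi. Like Hhip, all 5 were lower on light polysomes than in input in both arms.

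Other genes overlap the members' exons in GENCODE vM21. On the opposite strand, Gm27820 shares 175 of the 9076 exon bases of Hhip, Gm6556 shares 188 of the 9589 of Gli3, and Gm47200 and Arhgap9 share 265 and 62 of the 4995 of Gli1. The use of strand in counting is not known from the labels, so reads from these shared bases cannot be told apart between the genes.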

How the data were processed

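The authors deposited raw read counts per gene symbol, 1 file per library, not normalized. Bowtie and the build mm9 are named in the submitters' processing notes; the counting program, its use of strand and the annotation were not given in the sources used here. Libraries were stranded and polyA-selected, per the labels' protocols. Of 35976 symbols, 27 were written as dates.

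All 18 libraries were fitted together in edgeR 4.0.16 (R 4.3.3; TMM, filterByExpr with minimum count 10 and minimum total 15, robust quasi-likelihood F test), with 1 mean per group, 12 residual degrees of freedom and a biological coefficient of variation of 0.227. P-values were adjusted by Benjamini-Hochberg over 15072 genes; "rose", "fell" and "called" mean an adjusted p under 0.05. CPM is TMM-scaled. The code was tested on simulated data. Floors cover counting error only. No replicate pair was alike within sampling noise (lowest chi-square per degree of freedom 9.57).

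Library numbers come from the sample titles, which do not say what a number marks. The numbers were taken to pair the arms within a fraction, because deviations from group means over 9429 genes correlated in all 9 pairs (lowest r 0.152). Libraries of unlike number were not compared. Over all fractions 30 of 45 pairs had r over 0.1, and the lowest r was -0.333, between input and light polysomes of NSi. Pairing within a fraction was added after seeing the data. A result that passed only with pairing therefore rests on a choice made from these data. Alternatives were this block, a block over all fractions, DESeq2 1.42.0, its size factors, no filter, only the libraries compared, and each library left out.

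The members and gene lists were chosen with earlier results of these data known. Named were the members, Eif4g2, each pathway gene called between the arms, the 2 most abundant genes of a list with no call, and the 5 genes most like Hhip (Pearson r of log2 CPM, prior count 2, mean of at least 5 CPM). Dhh, Disp1, Hhat, Cdon, Evc2, Inpp5e, Iqce, Tulp3 and the markers of other cell types are outside this rule. They were named after their values were seen.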

Additional observations from a re-analysis of the deposited data

How the results depend on the processing

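Hhip kept its direction and its call on light and heavy polysomes under every alternative run. The counts of genes called in input, on light and on heavy polysomes (1047, 523 and 595) were 1798, 1013 and 1122 with the replicate block over all fractions, 3330, 2431 and 2765 with the block within a fraction, and 2218, 219 and 56 with only the libraries compared; DESeq2 gave 995 on light and 1050 on heavy polysomes. Leaving out 1 library gave 486 to 1712 in input (544, 551 and 559 without NSi 1, 2 and 3, 486, 1712 and 500 without shDap5 1, 2 and 3), 218 to 393 for light polysomes (218 without NSi 2, 326 without NSi 3, 253 without shDap5 2, 235 without shDap5 3) and 252 to 682 for heavy polysomes (252 without NSi 2, 313 without shDap5 3). Relative to input it gave 0 to 9 genes on heavy and 0 to 8 on light polysomes, both highest without shDap5 input 2.

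The members called in input (2) were 4 with the block within a fraction and with only the libraries compared, 1 with no filter on low counts, and 1 to 2 with 1 library left out. On light polysomes (1) they were 2 with the replicate block and in DESeq2, and 3 with the block within a fraction; on heavy polysomes (1) they were 2 with the block within a fraction. With that block a heavy-over-light difference refers to library 1 of each fraction and not to group means. For Gli1 it was -0.10 in shDap5 and -0.12 in NSi. Between group means, without the block, it was 0.39 in shDap5 and 0.30 in NSi, so these values are not the same measure. The block changed no other direction. With only the libraries compared, Boc (adjusted p = 0.105 on light, 0.154 on heavy), Evc on light (0.112) and Jag2 (0.0736 and 0.0724) missed the threshold.

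Small differences changed sign with 1 library left out. Gli3 ran from -0.070 to 0.052 in input, -0.27 to 0.074 on light polysomes and -0.18 to 0.21 on heavy ones. Heavy relative to input, the ranges were -0.21 to 0.23 for Ptch1, -0.13 to 0.32 for Smo, -0.042 to 0.82 for Gli1, -0.16 to 0.22 for Gli3 and -0.22 to 0.018 for Sufu. Light relative to input, they were -0.13 to 0.29 for Ptch1, -0.12 to 0.070 for Smo, -0.26 to 0.081 for Gli3 and -0.018 to 0.14 for Sufu. Heavy relative to light, they were -0.44 to 0.040 for Hhip, -0.32 to 0.20 for Ptch1, -0.10 to 0.35 for Smo, -0.49 to 0.38 for Gli1 and -0.11 to 0.31 for Gli3. Between heavy and light polysomes within an arm, Ptch1 ran from -0.15 to 0.36 and Gli1 from -0.18 to 0.69 in shDap5, and Gli3 from -0.018 to 0.24 in NSi. Depth limits Gli1 and Gli2, with under 70 counts a library.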
